A study of Mus musculus with 8 samples.

Results

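The 77 genes described here carry histone symbols, out of 55450 genes in the deposited table, and all but *Hist1h2aj* and *Hist1h2al*, annotated as pseudogenes, code for histones. They were listed by symbol, as members of the replication-dependent clusters *Hist1*, *Hist2*, *Hist3* and *Hist4* or as 1 of 8 variant genes, and 1 symbol marked as a pseudogene was dropped. This set was chosen with earlier results of these data known. The 69 clustered genes comprised 6 H1, 20 H2A, 18 H2B, 12 H3 and 13 H4 genes. The variants were *H1f0*, *H2afx*, *H2afz*, *H2afv*, *H2afy*, *H2afj*, *H3f3a* and *H3f3b*. Levels were measured by bulk RNA sequencing in CD45- EpCAM+ thymic epithelial cells (TECs), the stromal cells that make up the thymic cortex and medulla, sorted from embryonic day 17 mouse thymus. Every embryo carried 2 reporters, a *Ccl21a-tdTomato* knock-in that marks cells making the chemokine CCL21 and a RANK-Venus reporter for *Tnfrsf11a*, which encodes the cytokine receptor RANK. The sort gave 3 libraries of CCL21+RANK- cells, 3 of CCL21-RANK+ cells and 2 of CCL21-RANK- cells. The groups are reporter gates within 1 kind of embryo and not separate genotypes, so each can hold several TEC states, and no group without the reporters was sequenced.

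Histones are the proteins around which nuclear DNA is wound. An H3, H4, H2A and H2B core forms the nucleosome, and H1 linker histones bind where the DNA enters and leaves it. Clustered histone genes are short, lack introns, and are expressed mostly during DNA synthesis. Their mRNAs as a rule end after a conserved stem-loop instead of in a poly(A) tail, and the stem-loop is bound by SLBP. Variant genes lie outside the clusters, mostly make polyadenylated mRNA and are expressed throughout the cell cycle.

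The stem-loop was found in the annotated transcripts of most clustered members. A run of 16 bases that begins GGNNNTT and ends in the reverse complement of its first 6 bases was present in 46 of the 67 clustered members with a coding transcript (68.7%), against 120 of all 21901 protein-coding genes (0.548%). By class it was found in 4 of 6 H1, 11 of 18 H2A, 10 of 18 H2B, 9 of 12 H3 and 12 of 13 H4 genes. Of the 21 clustered genes without a match, 13 have a longest coding transcript under 420 bases, which in this annotation holds little more than the coding sequence, so for these the letters are only missing from what was annotated. Among the variants, *H2afx* alone had a match. The sequences are shown because they separate the H4 genes from the other classes and *H2afx* from the other variants. They are printed 5′ to 3′ from the GENCODE M21 transcripts, with the 16 bases of the stem-loop in capitals and the flanking bases in lower case.
Hist1h1c: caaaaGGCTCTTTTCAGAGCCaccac
Hist2h2aa2: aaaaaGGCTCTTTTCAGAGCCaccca
Hist1h2bg: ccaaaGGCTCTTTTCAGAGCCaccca
Hist1h3c: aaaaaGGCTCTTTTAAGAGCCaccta
Hist1h3g: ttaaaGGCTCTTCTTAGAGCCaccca
Hist1h4m: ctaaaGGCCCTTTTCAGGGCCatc
Hist1h4f: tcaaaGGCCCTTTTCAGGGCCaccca
Hist4h4: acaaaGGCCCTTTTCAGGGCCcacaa
H2afx: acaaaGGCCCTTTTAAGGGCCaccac

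The form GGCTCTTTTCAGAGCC occurred in 26 clustered genes, of which 3 were H1, 10 H2A, 8 H2B and 5 H3 genes. The form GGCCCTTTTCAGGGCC occurred in 7 genes, all of them H4. The stem-loop of *H2afx*, the variant phosphorylated at DNA breaks, has the stem of that H4 form with another loop. In *H2afx* the stem-loop is followed by a further 822 annotated bases, and in *Hist4h4*, the single gene of the *Hist4* cluster, by 2445.

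The *Hist1* cluster lies on chromosome 13 (GRCm38), with 24 members at chr13:21715763-22043676, 31 at chr13:23531050-23934851 and *Hist1h2al* apart from both, at chr13:51202727-51203065. The 10 *Hist2* members lie within chr3:96219865-96270132, the 2 *Hist3* members within chr11:58948920-58956830, and *Hist4h4* at chr6:136801553-136804415. Within the clusters, 14 pairs of members face away from each other with starts less than 1000 bases apart, and 13 of these join an H2A with an H2B gene at distances of 176 to 306 bases.

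Library totals were 59677342, 46003149 and 55116934 counts for CCL21+RANK-, 57286773, 50146758 and 42751858 for CCL21-RANK+, and 67451448 and 71625319 for CCL21-RANK-. The sort labels were reflected in the reporter genes. *Tnfrsf11a* was at 111, 93.1 and 107 RPKM (counts scaled to exon length and to the library total) in CCL21-RANK+ libraries and between 2.26 and 10.3 in the other 5. *Ccl21a* was highest in CCL21+RANK- libraries (561, 346 and 306 RPKM), lower in CCL21-RANK+ libraries (152, 95.9 and 78.2) and lowest in CCL21-RANK- libraries (6.89 and 8.88). The epithelial gene *Epcam* (49.5 to 156 RPKM) and *Foxn1*, the transcription factor of TECs (50.7 to 105 RPKM), were present in all 8 libraries, whereas *Ptprc*, which encodes the CD45 used to gate out blood cells, did not exceed 0.576 RPKM. *Psmb11*, a proteasome subunit of cortical TECs, was at 203 to 333 RPKM in CCL21+RANK-, 11.9 to 32.7 in CCL21-RANK+ and 293 to 299 in CCL21-RANK- libraries.

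Clustered histone transcripts were scarce in CCL21+RANK- cells compared with both other TEC populations. They took 0.162%, 0.206% and 0.264% of all counts in CCL21+RANK- libraries, 0.460%, 0.975% and 0.919% in CCL21-RANK+ libraries and 0.800% and 0.663% in CCL21-RANK- libraries. Summed over the 69 genes, this was 2930 ± 723 RPKM (SD, n = 3) in CCL21+RANK-, 11655 ± 4204 (n = 3) in CCL21-RANK+ and 11061 ± 1242 (n = 2) in CCL21-RANK- cells. The highest CCL21+RANK- library (3707 RPKM) was below the lowest of the others (6805 RPKM, CCL21-RANK+ replicate 1), while libraries of the latter 2 populations overlapped. In bulk RNA, fewer cells in DNA synthesis and less histone mRNA per cell cannot be told apart.

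The 8 variant genes differed much less. Their summed level was 581, 623 and 721 RPKM in CCL21+RANK-, 988, 1106 and 1099 in CCL21-RANK+ and 818 and 935 in CCL21-RANK- libraries. The ratio of clustered to variant RPKM was accordingly 4.52 ± 0.61 (SD, n = 3) in CCL21+RANK-, 10.8 ± 3.4 (n = 3) in CCL21-RANK+ and 12.7 ± 2.6 (n = 2) in CCL21-RANK- cells, and every CCL21+RANK- library (3.92 to 5.14) lay below every other library (6.89 to 14.6).

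**Figure D1:**
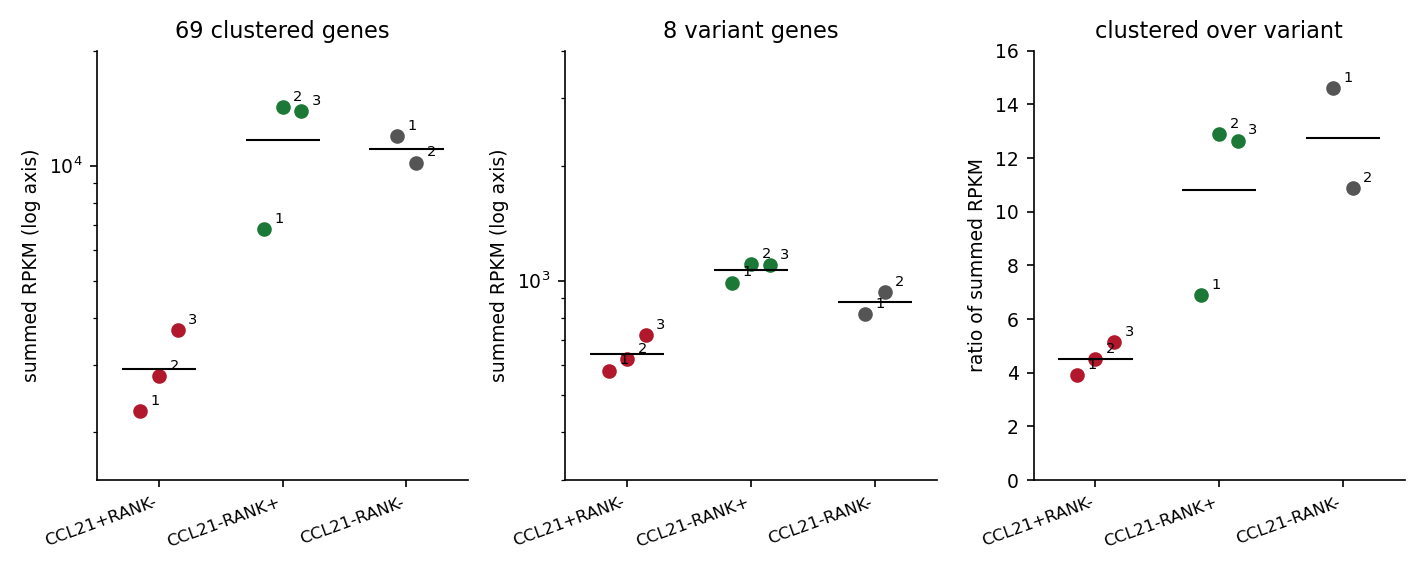
Summed RPKM of the 69 clustered histone genes (log axis), summed RPKM of the 8 variant genes (log axis) and the ratio of the 2 sums, for each library. Points are libraries numbered by replicate and bars are group means. The 3 CCL21+RANK- libraries sit lowest in all 3 panels, at 2278 to 3707 RPKM for the clustered genes.

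Of the 77 genes, 72 had enough counts to be tested (64 clustered and 8 variants). *Hist1h2aa*, *Hist1h2ba* and *Hist2h3c1* were at 0 in every library, and *Hist1h2aj* and *Hist1h2al* had 7.66 and 7.02 counts over all 8 libraries together. A gene was called when edgeR's adjusted p was under 0.05, the fold was over 1.5 and the mean of the higher group was over 1 RPKM. CCL21+RANK- cells compared with CCL21-RANK+ cells had 65 of the 72 histone genes called lower and 0 called higher, where 15.4% of all 21451 genes tested were called lower and 15.4% higher. The 65 were 63 of the 64 clustered genes and 2 of the 8 variants. Compared with CCL21-RANK- cells, 60 of 72 were called lower (57 clustered and 3 variants) and 0 higher, against a background of 3.66% called lower and 4.35% higher. With only 2 libraries in that group, fewer genes were called when either was left out, and the counts by class below rest on both. Over the 72 genes the median log2 fold change was -1.92, and it was -1.71 without CCL21-RANK- replicate 1 and -2.09 without replicate 2. The median log2 fold change of the clustered genes was -1.96 against CCL21-RANK+ and -1.94 against CCL21-RANK- cells, that of the variants -0.37 and -0.32, and that of all genes tested -0.11 and 0.

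Values did not overlap between groups for 61 of the 64 clustered genes against CCL21-RANK+ libraries (all but *Hist1h4i*, *Hist3h2a* and *Hist4h4*) and for 63 of 64 against CCL21-RANK- libraries (all but *Hist2h2be*), where 36.9% and 20.5% of all genes tested were likewise below without overlap. The only clustered gene not called against CCL21-RANK+ was *Hist1h1t*, the testis-type linker histone, which stayed at 0.0477 to 1.06 RPKM across the 8 libraries. Against CCL21-RANK- cells, with 2 libraries, the 7 clustered genes not called were *Hist1h1t*, *Hist1h1e*, *Hist1h2br*, *Hist2h2ab*, *Hist2h2be*, *Hist3h2a* and *Hist3h2ba*. These 2 comparisons share the CCL21+RANK- libraries, so their counts are not separate evidence. Each of the 5 histone classes had a median below 0 in both comparisons, and differences between classes were not tested. Class medians ranged from -2.08 (H3) to -1.86 (H1) against CCL21-RANK+ and from -2.14 (H4) to -1.84 (H2A) against CCL21-RANK- cells.

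**Figure D2:**
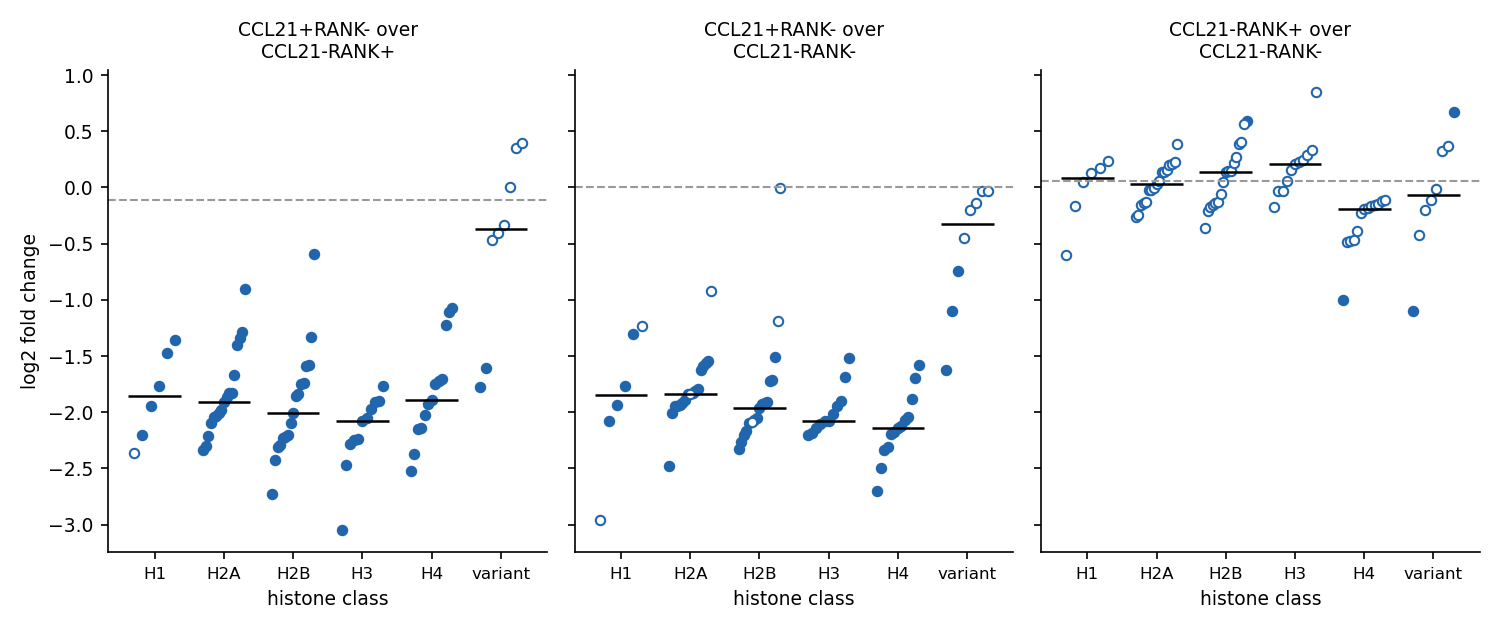
The log2 fold change of each tested histone gene by class (clustered H1, H2A, H2B, H3 and H4, and variants) in the 3 comparisons. Filled points were called and open points were not, black bars are class medians, and the dashed grey line is the median of all 21451 genes. In both comparisons of CCL21+RANK- cells, clustered medians lie between -2.14 and -1.84, whereas variant medians are -0.37 and -0.32.

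H4, the partner of H3 in the nucleosome core, had 13 of 13 genes called lower in CCL21+RANK- cells in both comparisons. *Hist1h4m* (chr13:21811746-21812147, plus strand), the H4 gene with the highest level, was at 123, 130 and 191 RPKM in CCL21+RANK-, 455, 666 and 646 in CCL21-RANK+ and 681 and 593 in CCL21-RANK- libraries. Its log2 fold change was -1.90 (SE 0.21, edgeR adjusted p = 4.88e-05) and -2.12 (SE 0.22, adjusted p = 0.000518). *Hist1h4f* differed more, at 74.9, 63.8 and 102 RPKM in CCL21+RANK- against 294, 594 and 588 in CCL21-RANK+ and 542 and 493 in CCL21-RANK- libraries. This was 5.75-fold and 6.52-fold lower, and the groups were far apart. *Hist1h4h* lay at 71.0, 95.8 and 124 RPKM, then 252, 433 and 502, then 379 and 416. *Hist1h4i* was called lower against CCL21-RANK+ although its libraries overlapped (log2 fold change -1.22, adjusted p = 0.0321).

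Among the H3 genes, which carry most of the modified histone tail residues studied in chromatin, 11 of 11 tested were called lower in both comparisons. *Hist2h3b* (chr3:96268654-96269141, plus strand) was at 75.0, 108 and 122 RPKM in CCL21+RANK-, 240, 498 and 492 in CCL21-RANK+ and 437 and 338 in CCL21-RANK- libraries. The corresponding values of *Hist1h3c* were 49.1, 59.2 and 89.6, then 204, 399 and 389, then 321 and 269. For *Hist1h3h* they were 42.1, 52.3 and 90.0, then 179, 362 and 387, then 246 and 245. In each of these genes the lowest CCL21-RANK+ library was replicate 1, and it still exceeded every CCL21+RANK- library. *Hist1h3g* (chr13:23535422-23535951, plus strand) had the largest H3 difference from CCL21-RANK+ cells. It was at 8.15, 9.98 and 15.8 RPKM in CCL21+RANK- and at 52.6, 123 and 123 in CCL21-RANK+ libraries, 8.29-fold lower (log2 fold change -3.05, SE 0.36, adjusted p = 8.22e-05). Its CCL21-RANK- libraries were at 54.0 and 48.8 RPKM. *Hist2h3c2*, in the *Hist2* cluster, had log2 fold changes of -2.29 and -2.08.

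H2A pairs with H2B in the nucleosome. All 17 tested H2A genes were called lower against CCL21-RANK+ and 15 of 17 against CCL21-RANK- cells. *Hist2h2aa2* (chr3:96239749-96240276, minus strand) was the most abundant, at 167, 188 and 234 RPKM in CCL21+RANK-, 311, 640 and 583 in CCL21-RANK+ and 620 and 517 in CCL21-RANK- libraries. *Hist1h2ap* was at 79.7, 123 and 113, then 215, 624 and 560, then 430 and 306 RPKM. *Hist2h2aa1* was at 76.6, 108 and 113, then 145, 355 and 307, then 336 and 256 RPKM. The more abundant *Hist2* genes in this group had smaller differences than the tested *Hist1* genes. Against CCL21-RANK+ cells, *Hist2h2aa2*, *Hist2h2aa1* and *Hist2h2ac* had log2 fold changes of -1.28, -1.34 and -1.40, whereas tested *Hist1* H2A genes ranged from -2.33 to -1.67. The less abundant *Hist2h2ab* (1.51 to 11.7 RPKM) was at -1.87, within the *Hist1* range. No test of the difference between clusters was made. *Hist2h2aa2* and *Hist2h2aa1* shared 100% and 88.3% of their 100-base windows with another gene, so their values may not be separate observations.

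For H2B, 17 of 17 tested genes were called lower against CCL21-RANK+ and 14 of 17 against CCL21-RANK- cells. *Hist1h2bg* (chr13:23571396-23572013, plus strand) was at 80.8, 103 and 118 RPKM in CCL21+RANK-, 164, 426 and 382 in CCL21-RANK+ and 368 and 288 in CCL21-RANK- libraries. *Hist2h2bb* was at 38.7, 43.0 and 70.2, then 104, 228 and 244, then 214 and 199 RPKM. *Hist1h2bj* was at 33.3, 58.2 and 54.4, then 81.4, 232 and 209, then 240 and 174 RPKM. All 3 showed the same order as the summed level, with CCL21+RANK- libraries lowest and CCL21-RANK+ replicate 1 between them and the rest.

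The linker histone genes were called lower in 5 of 6 cases against CCL21-RANK+ and in 4 of 6 against CCL21-RANK- cells. *Hist1h1c* (chr13:23738808-23740367, plus strand) was at 99.2, 137 and 139 RPKM in CCL21+RANK-, 223, 454 and 357 in CCL21-RANK+ and 354 and 262 in CCL21-RANK- libraries. Its log2 fold changes were -1.35 (SE 0.28) and -1.31 (SE 0.31). *Hist1h1b* was at 42.6, 57.9 and 74.0, then 156, 388 and 313, then 271 and 213 RPKM, with larger differences of -2.21 and -2.07. *Hist1h1e* was at 56.8, 88.2 and 103, then 145, 329 and 262, then 221 and 164 RPKM. Its difference from CCL21-RANK- cells was -1.24 with an adjusted p of 0.0529 by edgeR, and it was not called although the libraries did not overlap.

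The members outside *Hist1* included those that departed most from the common pattern. *Hist2h2be* (chr3:96221119-96223738, plus strand), an H2B gene with a long annotated transcript and no stem-loop match, was at 3.02, 2.25 and 3.17 RPKM in CCL21+RANK-, 4.22, 4.37 and 5.17 in CCL21-RANK+ and 2.95 and 2.64 in CCL21-RANK- libraries. It was 1.51-fold lower in CCL21+RANK- cells relative to CCL21-RANK+ cells (adjusted p = 0.0218), close to the fold threshold, and its log2 fold change against CCL21-RANK- cells was -0.00 (SE 0.21). *Hist2h2be* and *Hist2h2ac* form a divergent pair with starts 239 bases apart. *Hist2h2ac* was at 39.9, 48.3 and 71.3, then 86.1, 181 and 180, then 167 and 142 RPKM. The log2 fold changes of these neighbours differed by 0.80 in the first comparison and 1.56 in the second, whereas the partners of the other 10 tested H2A and H2B pairs differed by at most 0.54 and 0.35. These differences within pairs were not tested.

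*Hist4h4* (chr6:136801553-136804415, minus strand) was at 2.86, 3.96 and 5.14 RPKM in CCL21+RANK-, 4.99, 9.62 and 12.3 in CCL21-RANK+ and 16.6 and 16.7 in CCL21-RANK- libraries. It was thus highest in CCL21-RANK- cells, and libraries overlapped between CCL21+RANK- and CCL21-RANK+ cells. *Hist2h4* showed the same order, at 17.9, 15.5 and 27.8, then 32.1, 51.8 and 56.1, then 62.6 and 57.1 RPKM. In the *Hist3* cluster, *Hist3h2a* (30.0 to 96.5 RPKM) had log2 fold changes of -0.90 (adjusted p = 0.0337, with overlapping libraries) and -0.92 (not called), and *Hist3h2ba* (5.59 to 35.4 RPKM) of -1.75 and -1.19 (not called). Cluster medians against CCL21-RANK+ cells were -2.03 for 52 *Hist1*, -1.40 for 9 *Hist2* and -1.33 for 2 *Hist3* genes.

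The variants fell into those called lower in both comparisons, like most clustered genes, and those that were not. *H2afx* (chr9:44334694-44336077, plus strand) was at 28.2, 36.5 and 50.5 RPKM in CCL21+RANK-, 76.1, 157 and 142 in CCL21-RANK+ and 122 and 113 in CCL21-RANK- libraries. Its log2 fold changes of -1.61 (SE 0.29) and -1.63 (SE 0.31) were both called. *H2afz* (chr3:137864487-137866922, plus strand), which encodes the H2A.Z of promoter nucleosomes, formed 3 separate levels. It was at 64.4, 68.2 and 83.3 RPKM in CCL21+RANK-, 209, 300 and 287 in CCL21-RANK+ and 144 and 164 in CCL21-RANK- libraries, 3.42-fold (adjusted p = 2.03e-05) and 2.15-fold (adjusted p = 0.00469) lower in CCL21+RANK- cells.

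*H2afv* (chr11:6427229-6444443, minus strand) encodes a second H2A.Z and had another order of groups. It was at 20.5, 21.6 and 24.3 RPKM in CCL21+RANK-, 19.0, 19.9 and 17.4 in CCL21-RANK+ and 33.3 and 41.0 in CCL21-RANK- libraries. *H2afv* was called lower in CCL21+RANK- cells relative to CCL21-RANK- cells (log2 fold change -0.74, adjusted p = 0.00382), and its difference of 0.35 from CCL21-RANK+ cells was below the fold threshold. The other 5 variants were called in neither comparison, several of them only because of the fold threshold. Against CCL21-RANK+ cells *H2afy* (log2 fold change -0.47, edgeR adjusted p = 0.00473), *H3f3b* (-0.41, adjusted p = 0.0121) and *H3f3a* (-0.34, adjusted p = 0.0226) were slightly lower. *H2afj* was slightly higher (0.40, adjusted p = 0.0129). Against CCL21-RANK- cells *H3f3a* was slightly lower (-0.45, adjusted p = 0.0383). *H1f0*, a linker histone abundant in differentiated cells, was at 154, 165 and 178, then 170, 185 and 184, then 169 and 214 RPKM, with a log2 fold change of 0.00 (SE 0.12) against CCL21-RANK+ cells. *H3f3b*, 1 of the 2 genes for the replacement histone H3.3, was the most abundant variant at 218, 237 and 268, then 376, 321 and 344, then 231 and 262 RPKM. *H3f3a*, the other H3.3 gene, ranged from 62.4 to 104 RPKM, *H2afj* from 16 to 26.6 RPKM and *H2afy*, which encodes a macroH2A of silent chromatin, from 8.55 to 14.8 RPKM. In these 5 genes log2 fold changes of CCL21+RANK- cells ranged from -0.47 to 0.40.

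**Figure D3:**
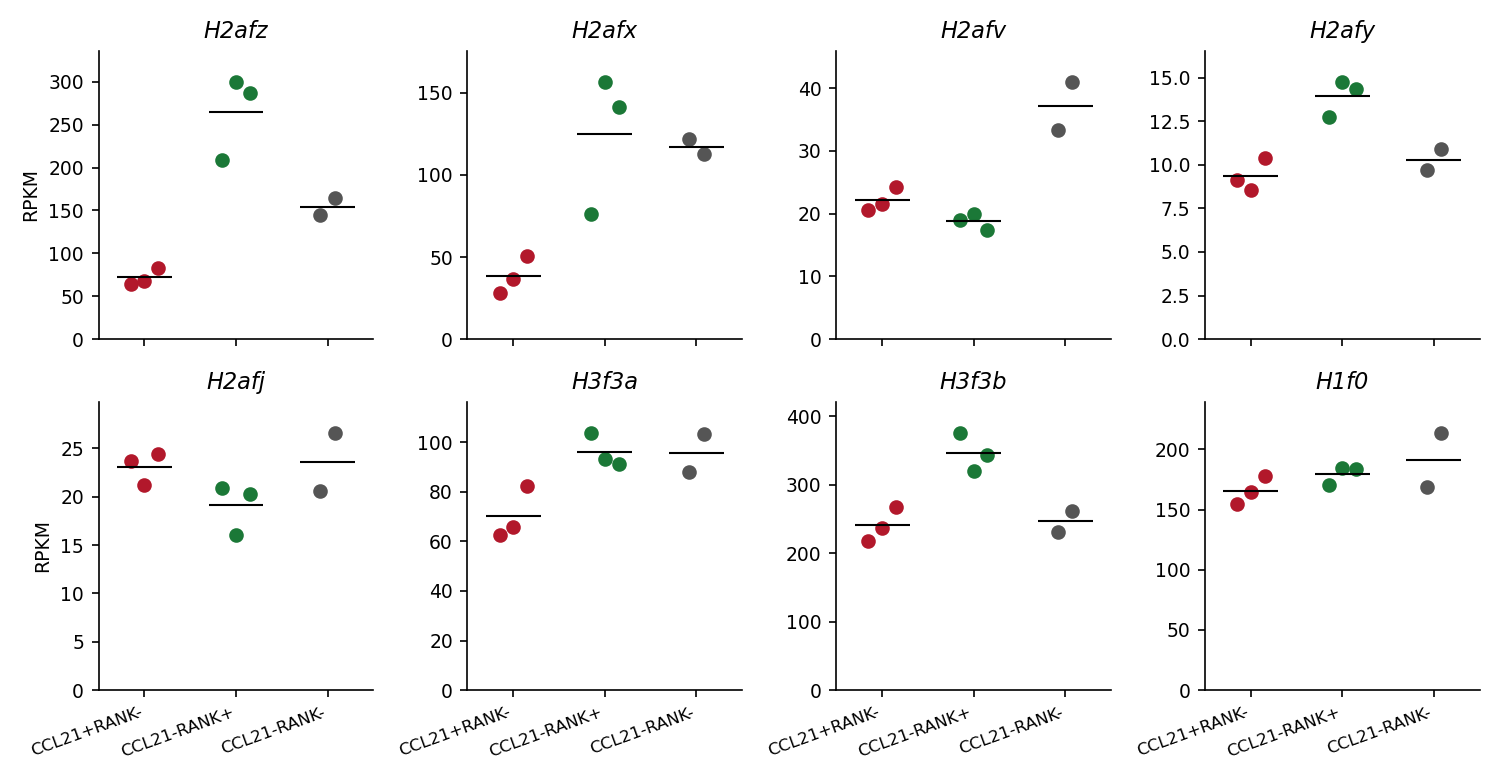
RPKM of the 8 variant histone genes in each library, with bars at group means. *H2afx* and *H2afz* are lowest in the 3 CCL21+RANK- libraries, *H2afv* is highest in the 2 CCL21-RANK- libraries (33.3 and 41.0 RPKM), and *H1f0* lies between 154 and 214 RPKM throughout.

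The makeup of the histone mRNA pool differed between the populations. Of all H3 RPKM, the 2 H3.3 genes contributed 41.4%, 37.0% and 34.4% in CCL21+RANK- libraries, 24.9%, 12.2% and 12.9% in CCL21-RANK+ and 12.3% and 16.5% in CCL21-RANK- libraries. *H1f0* likewise made up 38.8%, 32.0% and 30.6% of H1 RPKM in CCL21+RANK- and 11.0% to 20.5% in the other libraries. The 3 CCL21+RANK- libraries were above the other 5 in both cases. The H2A variants made up 17.4%, 15.6% and 14.7% of H2A RPKM in CCL21+RANK-, 16.02%, 11.5% and 11.4% in CCL21-RANK+ and 9.33% and 12.0% in CCL21-RANK- libraries, and here CCL21-RANK+ replicate 1 lay among the CCL21+RANK- libraries. Within the clustered genes, H2A accounted for 30.1% to 30.4% in CCL21+RANK- and 25.7% to 27.3% in the other libraries, and H3 for 17.4% to 18.4% in CCL21+RANK-, 20.8% to 21.3% in CCL21-RANK+ and 18.2% to 19.0% in CCL21-RANK- libraries, the last overlapping the first. *Hist2* contributed 18.7% to 19.7% in CCL21+RANK- libraries, 15.1% to 15.5% in CCL21-RANK+ and 16.2% to 16.95% in CCL21-RANK- libraries. H2B shares overlapped between groups, within 13.1% to 16.4%. These shares are descriptions of levels per length and were not tested.

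**Figure D4:**
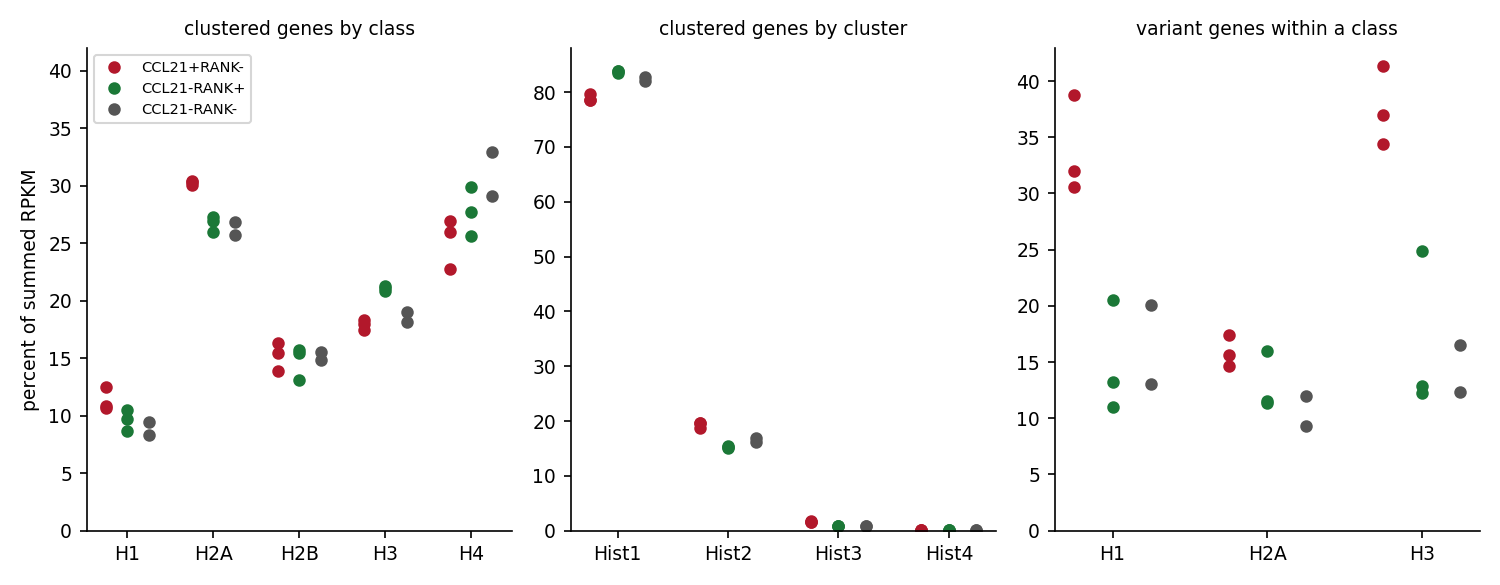
Percent of summed clustered RPKM by histone class and by cluster, and the percent of each class contributed by its variants, for each library. H3.3 genes make up 34.4% to 41.4% of H3 RPKM in CCL21+RANK- and 12.2% to 24.9% in the other libraries.

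CCL21-RANK+ and CCL21-RANK- cells differed little in these genes. Of the 72 histone genes, 2 were called higher and 2 lower in CCL21-RANK+ cells, against 14.4% of all genes called higher and 15.1% lower. The higher genes were *Hist2h2be* (1.51-fold, adjusted p = 0.0402) and *H2afz* (1.60-fold, adjusted p = 0.0144), and the lower genes *Hist4h4* (log2 fold change -0.998, SE 0.34, adjusted p = 0.0341) and *H2afv* (-1.10, SE 0.12, adjusted p = 5.4e-05). Without either CCL21-RANK- library or CCL21-RANK+ replicate 2, only *H2afv* was called, and *Hist2h2be* was lost in 7 alternatives in all. The median over all 72 was -0.02, beside 0.06 for all genes. It ranged from -0.23 without CCL21-RANK+ replicate 2 to 0.30 without CCL21-RANK+ replicate 1, and was -0.25 with a replicate block. Of the 64 clustered genes, *Hist2h2be* lay above in every CCL21-RANK+ library, and *Hist2h4* (not called) and *Hist4h4* lay below, where 38.8% of all genes lay above and 27.0% below without overlap. *Hist1h3g* had a log2 fold change of 0.85 (SE 0.38) and was not called (adjusted p = 0.0886).

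Unscaled group means of RPKM were highest in CCL21-RANK- cells for 13 of 13 H4 genes and in CCL21-RANK+ cells for 10 of 11 H3 genes. Class medians were -0.19 for H4 and 0.21 for H3. None of these clustered H3 or H4 genes other than *Hist4h4* was called, and the H4 median moved to 0.00 when genes under 10 counts in any library were left out and to 0.09 without CCL21-RANK+ replicate 1. The H3 median was -0.10 with a replicate block and -0.02 without CCL21-RANK+ replicate 2 or CCL21-RANK- replicate 2, so neither class had a stable direction. CCL21-RANK+ replicate 1 was the lowest of its group for 64 of 64 clustered genes. Without it, 9 histone genes were called higher and 2 lower in CCL21-RANK+ cells, and the call of 65 lower genes in CCL21+RANK- against CCL21-RANK+ cells stood at 65.

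The letters of several known promoter motifs were unevenly spread over the histone classes. Of the 77 members, 69 matched a RefSeq promoter table (GRCm38.p6) holding 250 bases before and 50 after each of 27025 starts. CCAAT, on either strand, was present in all 6 H1, 18 H2A, 16 H2B and 10 H3 clustered promoters matched, in 3 of 12 H4 promoters (25%) and in 37.9% of all promoters. The octamer ATTTGCAT was present in 7 of 18 H2A (38.9%) and 6 of 16 H2B (37.5%) promoters, in 0 of the clustered H1, H3 and H4 promoters and in 1.75% of all. AAACACA, the H1 box, was found in 5 of 6 H1 promoters (83.3%), 2 of 18 H2A and 2 of 16 H2B promoters, against 7.14% of all. TATAAA was found in 66.7% of H1, 61.1% of H2A, 50% of H2B, 40% of H3 and 66.7% of H4 promoters and in 14.2% of all, and TTTCGCGC, letters bound by E2F factors, in 5 of 18 H2A and 4 of 16 H2B promoters against 0.318% of all. Genes of one class, and the partners of a divergent pair, share promoter sequence and are not independent. An absent motif says only that these letters are not in the window.

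The 150 bases before the start are shown for 1 abundant gene each of H1, H2B and H4, to set side by side the promoters of genes that were all lower in CCL21+RANK- cells. All read along the plus strand, and capitals mark the motifs named above on either strand, none of which contains another. They span chr13:23738657-23738806, chr13:23571250-23571399 and chr13:21811596-21811745.
Hist1h1c: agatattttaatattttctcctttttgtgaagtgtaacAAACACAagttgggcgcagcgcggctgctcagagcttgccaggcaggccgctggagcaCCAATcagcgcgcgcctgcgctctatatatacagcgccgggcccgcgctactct
Hist1h2bg: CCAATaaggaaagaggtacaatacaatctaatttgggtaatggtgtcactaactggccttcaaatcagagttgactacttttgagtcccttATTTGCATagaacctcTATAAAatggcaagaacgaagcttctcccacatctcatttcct
Hist1h4m: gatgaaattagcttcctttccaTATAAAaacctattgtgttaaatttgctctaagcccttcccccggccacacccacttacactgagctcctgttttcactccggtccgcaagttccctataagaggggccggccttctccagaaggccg

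The H1 promoter carries the H1 box and CCAAT, the H2B promoter the octamer, TATAAA and CCAAT, and the H4 promoter only TATAAA. Their log2 fold changes in CCL21+RANK- against CCL21-RANK+ cells were -1.35, -1.59 and -1.90. Each is 1 gene of its class, and a relation between motifs and fold changes was not tested.

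Clustered genes with and without an annotated stem-loop were both called lower in most cases. Against CCL21-RANK+ cells, 44 of 45 tested clustered genes with the stem-loop were called lower (median -1.93) and 19 of 19 without it (median -2.10). The share of all genes called lower was 15.4%. Genes whose annotated transcript ended less than 100 bases after the stem-loop had a median of -2.01 (23 of 23 called lower), and those with a longer annotated end -1.76 (21 of 22 called lower). This division was made after the values were seen, and neither difference was tested.

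Of 14 genes for histone mRNA processing, 2 were called lower and 0 higher in CCL21+RANK- cells relative to CCL21-RANK+ cells, beside 15.4% of all genes in each direction. They were *Cstf2*, a cleavage factor subunit (log2 fold change -0.98, adjusted p = 9.7e-05), and *Eri1*, an exonuclease that trims the stem-loop end (-0.68). *Eri1* was the only one called lower against CCL21-RANK- cells (-0.59), beside 3.66% of all genes, a call that was lost in most alternatives. *Slbp* was at 4.26, 3.82 and 4.54 RPKM in CCL21+RANK-, 5.08, 5.32 and 6.01 in CCL21-RANK+ and 4.84 and 5.997 in CCL21-RANK- libraries, with a log2 fold change of -0.26 (adjusted p = 0.077), and was not called. *Npat*, the coactivator of histone gene transcription, was at 2.74 to 4.10 RPKM and was not called either. Of the 14, *Lsm11* and *Lsm1* were called lower in CCL21-RANK+ cells relative to CCL21-RANK- cells (-0.68 and -0.73), beside 15.1% of all genes.

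Of 28 histone chaperone genes, 6 were called lower and 2 higher in CCL21+RANK- cells relative to CCL21-RANK+ cells, beside 15.4% of all genes in each direction. *Asf1b*, which hands H3 and H4 to the replication fork, was at 0.609, 0.772 and 1.195 RPKM against 2.88, 3.47 and 5.06 (log2 fold change -2.05). *Chaf1a* (-0.67), *Nasp* (-0.78), *Nap1l1* (-0.87) and *Npm1* (-0.81) were called lower too. *Daxx* (0.78) and *Ubn1* (1.17), of the complexes that deposit H3.3 outside replication, were called higher. Against CCL21-RANK- cells, 4 of 28 were called lower, among them *Hat1*, *Hjurp* and *Npm1*, and none higher, beside 3.66% and 4.35% of all genes. Between CCL21-RANK+ and CCL21-RANK- cells, 2 of 28 (*Daxx* and *Ubn1*) were called lower in the former and none higher, beside 15.1% and 14.4% of all genes. Among 7 other histone genes tested, *Cenpa*, the centromeric H3, was at 0.526, 0.601 and 0.681 RPKM in CCL21+RANK-, 2.39, 4.10 and 4.09 in CCL21-RANK+ and 1.93 and 2.42 in CCL21-RANK- libraries and was called lower in CCL21+RANK- cells in both comparisons. *H2afy2*, a second macroH2A gene, was called lower in CCL21-RANK+ than in either of the other populations.

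S phase and mitosis genes were lower in CCL21+RANK- cells as well. Of 20 S phase genes, 18 were called lower against CCL21-RANK+ (median -1.19) and 14 against CCL21-RANK- cells (median -0.87), beside 15.4% and 3.66% of all genes. Of 18 mitosis genes, 18 (median -1.83) and 16 (median -1.42) were called lower, and none of either list was called higher. *Pcna*, the sliding clamp of DNA synthesis, had log2 fold changes of -0.88 and -0.73. Between CCL21-RANK+ and CCL21-RANK- cells, where the histone genes had a median of -0.02, 6 of 20 S phase genes were called higher (*Rrm2*, *Ccne2*, *Uhrf1*, *Cdc45*, *E2f1* and *E2f2*) and *Gins2* lower (median 0.36). Of the mitosis genes, *Cdk1*, *Aurka*, *Bub1*, *Cenpe* and *Nusap1* were called higher and none lower (median 0.37). The shares over all genes in this comparison were 14.4% higher and 15.1% lower. *Rrm2*, a ribonucleotide reductase subunit, was at 22.8, 30.9 and 30.0 RPKM in CCL21-RANK+ and 10.1 and 13.5 in CCL21-RANK- libraries. The ratio of clustered histone to S phase RPKM was 16.1, 24.5 and 25 in CCL21+RANK-, 23.5, 37.7 and 37.5 in CCL21-RANK+ and 52.6 and 37.6 in CCL21-RANK- libraries. The ratio to mitosis RPKM was 33.3, 35.3 and 37.8, then 29.4, 40.8 and 43.2, then 62.7 and 41.0, so both ratios overlapped between CCL21+RANK- and CCL21-RANK+ cells and were higher in both CCL21-RANK- libraries than in any CCL21+RANK- library.

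**Figure D5:**
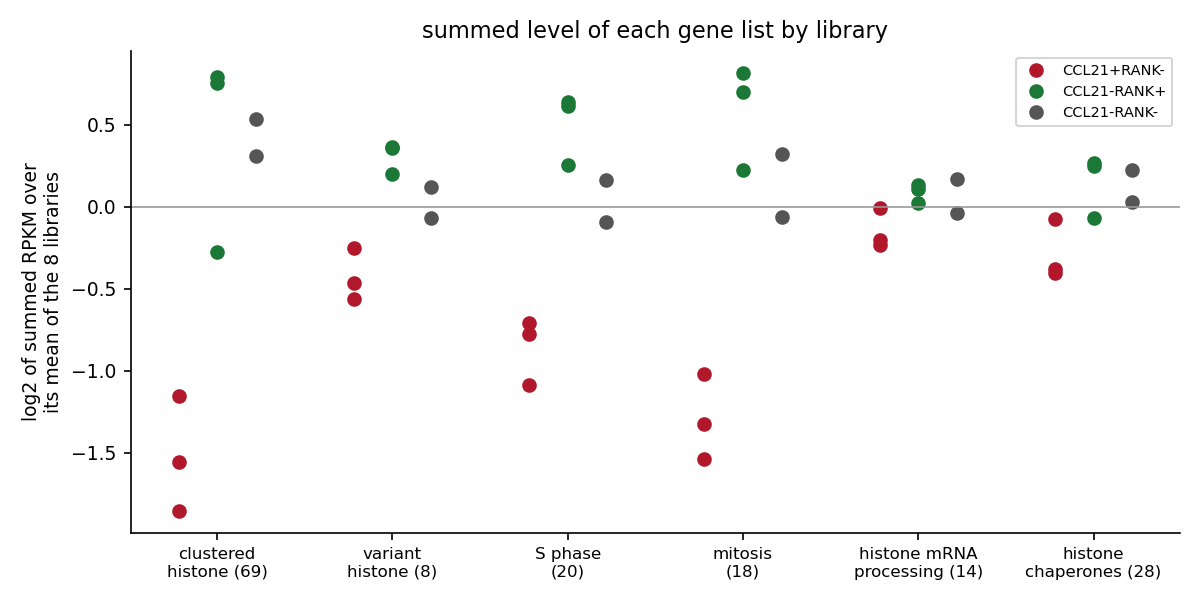
Summed RPKM of each gene list in each library, as log2 of the sum over its mean across the 8 libraries. The lists are 69 clustered histone, 8 variant histone, 20 S phase, 18 mitosis, 14 histone mRNA processing and 28 histone chaperone genes. Clustered histone, S phase and mitosis sums are lowest in the 3 CCL21+RANK- libraries.

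Markers of other cells differed between the groups too. The 4 parathyroid genes summed to 7122, 1750 and 1955 RPKM in CCL21+RANK-, 24.9, 11.1 and 12.0 in CCL21-RANK+ and 23.8 and 21.6 in CCL21-RANK- libraries, all 4 were called higher in CCL21+RANK- cells in both comparisons (beside 15.4% and 4.35% of all genes), and the most abundant was *Chga* at up to 4061 RPKM. The library with the highest parathyroid sum, CCL21+RANK- replicate 1, also had the lowest clustered histone sum. Without it, 62 of 72 histone genes were called lower against CCL21-RANK+ (median -1.76) and 51 against CCL21-RANK- cells, with the parathyroid sums of the other CCL21+RANK- libraries as given. The 14 thymocyte genes summed to 14.5, 6.27 and 8.18, then 34.8, 15.4 and 24.9, then 4.63 and 4.00 RPKM, with 3 (*Cd4*, *Lck* and *Thy1*) called lower in CCL21+RANK- cells relative to CCL21-RANK+ cells, where 15.4% of all genes were. The 10 mesenchymal and endothelial genes summed to 2.21, 2.57 and 1.47, then 50.9, 26.4 and 32.1, then 3.41 and 1.62 RPKM, with 4 (*Pdgfrb*, *Col1a1*, *Dcn* and *Lum*) called lower in the same comparison. The 7 erythroid genes summed to 6.61, 164 and 59.4, then 186, 286 and 301, then 453 and 57.1 RPKM. Of these, *Alas2* alone was called lower relative to CCL21-RANK+ cells, beside 15.4% of all genes, and none relative to CCL21-RANK- cells. The part of other cells in the histone result was not tested.

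Because clustered histone mRNAs are not polyadenylated, their level also depends on how RNA was selected. The labels name a directional kit and the study's methods a total RNA kit, and whether poly(A) RNA was selected is not stated for the former. Other RNAs without a poly(A) tail differed as well. Of 11 tested, 3 (*Rpph1*, *Terc* and *Snora73a*) were called lower in CCL21+RANK- cells relative to CCL21-RANK+ cells, beside 15.4% of all genes. Relative to CCL21-RANK- cells, 4 (*Rn7sk*, *Rmrp*, *Rpph1* and *Terc*) were called lower, beside 3.66% of all genes, and none was called higher in either comparison. *Rn7sk* was at 5706, 7180 and 7732 RPKM in CCL21+RANK-, 6162, 7937 and 12417 in CCL21-RANK+ and 18136 and 22131 in CCL21-RANK- libraries. The whole list summed to 62296, 108590 and 55190 RPKM in CCL21+RANK-, 79871, 98545 and 102320 in CCL21-RANK+ and 102860 and 72205 in CCL21-RANK- libraries, which overlapped. Without the abundant *Gm26917* and *Gm42418* it summed to 12516, 14455 and 15861, then 15876, 19512 and 28789, then 33302 and 43471 RPKM. The order was then that of CCL21+RANK- libraries lowest and CCL21-RANK- libraries highest, although CCL21+RANK- replicate 3 and CCL21-RANK+ replicate 1 were practically equal. The part of RNA selection in the result was not tested.

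Many clustered genes are near copies of one another, and RSEM divides a read that maps to several genes among them. Of the 64 tested clustered genes, 58 had at least 1 value that was not whole, and 24 shared over 50% of their 100-base windows with another gene. All 24 were called lower against CCL21-RANK+ cells (median -2.10), as were 39 of the 40 that shared less (median -1.85). *Hist2h2aa2* shared 100% of its windows, *Hist1h4m* 88.1%, *Hist2h3b* 77.1%, *Hist1h2bg* 44.9%, *Hist1h4f* 18.2%, *Hist1h1c* 5.07% and *Hist2h2be* 0%. The level of a single gene in the first 3 of these is therefore uncertain. The same holds for *Hist1h2ap* (92.2%), *Hist1h3h* (92.0%), *Hist2h2aa1* (88.3%) and *Hist2h3c2* (61.6%), and for the rest of the 24. A sum of counts over a class does not depend on how reads were divided within it, but a sum of RPKM does where the genes differ in length. *Hist1h2be* overlaps *Hist1h1e*, and *Hist3h2a* overlaps *Trim17*, so reads of these genes may also have been shared.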

How the data were processed

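RNA from sorted embryonic day 17 TECs was sequenced in 8 libraries (3 CCL21+RANK-, 3 CCL21-RANK+, 2 CCL21-RANK-, grouped by the cell type label). The authors deposited RSEM expected counts per gene. The submitters' processing notes name bcl2fastq 2.20, Trimmomatic, STAR 2.5.1, RSEM 1.3.1 and mm10. The labels name the NEBNext Ultra II Directional kit, whereas the study's methods describe CLC Genomics Workbench and the TruSeq Stranded Total RNA kit. All 55450 gene identifiers were in GENCODE M21, and 4.47% to 5.94% of values per library were not whole.

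Expected counts were rounded and tested with edgeR 4.0.16 (R 4.3.3), with TMM normalization, filterByExpr by group, a quasi-likelihood fit of the group means over all 8 libraries, and Benjamini-Hochberg adjustment over 21451 genes. The common biological coefficient of variation was 0.326. RPKM was calculated from library totals (42751858 to 71625319 counts) and the union exon length. The abundant genes *Gm26917* and *Gm42418* took 6.89% to 19.4% and 1.47% to 10.7% of counts. The script was checked on simulated data. The study's reporting checklist calls its replicates biological. Nothing in the labels says which embryos, litters or sorts they came from, and p-values measure the spread between these libraries. Replicates differed far beyond counting noise (chi-square per gene 84.9 to 301).

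The histone members and the gene lists were chosen with earlier results of these data known, so counts over them are descriptions and no set test was run. Genes named were all 8 variants, the 3 most abundant clustered genes of each class, every tested *Hist2*, *Hist3* and *Hist4* gene, clustered genes called against the majority, and up to 6 called genes of each related list. *Hist1h1t*, *Hist1h3g*, *Hist1h4i*, the genes lost or not tested, and some related genes were added after their values were seen. Stem-loops were searched in GENCODE M21 transcripts and promoter motifs in a RefSeq table. Protein sequences were not analysed here. The result of 1 histone chaperone gene is not reported here. Alternatives were DESeq2 1.42.0, its size factors in edgeR, other expression filters, only the libraries compared, adjusted p alone, a replicate block, *Gm26917* and *Gm42418* removed, and each library left out.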

Additional observations from a re-analysis of the deposited data

How the results depend on the processing

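Among the 31 named histone genes, no called value changed sign under any alternative. The count of histone genes called in CCL21+RANK- against CCL21-RANK+ cells (65) was 61 to 65 when single libraries were left out, and 65 to 71 under the other alternatives. The 71 were called by adjusted p alone, 69 of them lower and 2 higher. Against CCL21-RANK- cells the count was 60, with 60 to 65 under those alternatives, and it ranged from 23 (without CCL21-RANK- replicate 1) to 65 when single libraries were left out. It was 47 without CCL21-RANK- replicate 2. Leaving either out leaves 1 library in that group, which is assumed to vary like the other groups. Whether the lower counts of these fits reflect this or a smaller difference was not tested. Over the 72 histone genes tested, the median log2 fold change against CCL21-RANK- cells was -1.92 with all libraries. It was -1.71 without CCL21-RANK- replicate 1 and -2.09 without replicate 2, the extremes when single libraries were left out. Between CCL21-RANK+ and CCL21-RANK- cells the count of 4 was 7 by adjusted p alone and ranged from 1 to 11 when single libraries were left out. *H2afv* was called in all of these alternatives, whereas *H2afz* was lost without CCL21-RANK+ replicate 2 or either CCL21-RANK- library, *Hist4h4* without the same libraries, with DESeq2 size factors or with a minimum of 10 counts, and *Hist2h2be* in 7 alternatives. *Eri1* was lost against CCL21-RANK- cells in most. DESeq2 size factors moved the median log2 fold change of all genes from 0.06 to 0.20 between CCL21-RANK+ and CCL21-RANK- cells and from -0.11 to -0.20 for CCL21+RANK- against CCL21-RANK+. The clustered to variant ratio on CPM instead of RPKM was 1.28 for CCL21+RANK-, 3.07 for CCL21-RANK+ and 3.57 for CCL21-RANK- cells. On RPKM it ranged, when single libraries were left out, from 4.21 to 4.82, 9.77 to 12.8 and 10.9 to 14.6. Without *Gm26917* and *Gm42418* the clustered share was 0.191%, 0.266% and 0.295% in CCL21+RANK-, 0.566%, 1.27% and 1.14% in CCL21-RANK+ and 1.01% and 0.723% (mean 0.865%) in CCL21-RANK- libraries. The cause of these changes was not tested.

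The replicate numbers shared by the groups mark no stated litter, batch or day. Between CCL21+RANK- and CCL21-RANK+ cells, deviations of libraries with the same number correlated at 0.126, 0.0485 and 0.0707 across genes, each the highest for its library between these groups, a hint from the data and not from the design. The other same-numbered pairs lay between -0.117 and -0.0411. The fit with a replicate block called 65, 64 and 6 histone genes in the 3 comparisons, against 65, 60 and 4 without it.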
